A study of Saccharomyces cerevisiae with 10 samples.

Results

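The 8 genes described here, FAS1, FAS2, ACC1, OLE1, ELO1, FEN1, SUR4 and FAA1, encode enzymes that build, desaturate, lengthen or activate fatty acids in budding yeast. They are 8 of the 5911 nuclear protein-coding genes examined, out of 6477 annotated genes. The genes were chosen by name with measured values of these data in view: FAS2 was selected on its excess of protein-bound clusters in total RNA over polyadenylated (polyA) RNA. Its ratio between those RNA populations, and those of the other 7 genes, are therefore given as a description with no test.

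In gPAR-CLIP, cells take up 4-thiouracil, long-wave UV joins the labelled RNA to proteins that touch it, and short protein-bound stretches of RNA, called clusters, are sequenced and mapped. All groups came from the wild-type strain BY4742 (MATa in the labels, with ura3-delta-0, lys2-delta-0, leu2-delta-0 and his3-delta-1), grown with 200 µM 4-thiouracil and irradiated 4 times at 365 nm with 150 mJ/cm2. The 4 groups used here were total RNA from log-phase cells, polyA RNA from cells kept 2 h without glucose, polyA RNA from cells kept 2 h without nitrogen, and polyA RNA from log-phase cells. Each of them held 2 libraries made from the top of a sucrose gradient, which the design text gives as lighter than the 40S ribosome. Heavy total RNA was not used here. The authors gave 1 list of clusters for both libraries of a group. There is thus no replicate spread, and every interval below is a 95% interval that covers counting error only. More RNA and more protein per RNA cannot be told apart in these lists.

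Fatty acid synthesis starts when acetyl-CoA carboxylase, the ACC1 product, converts acetyl-CoA to malonyl-CoA. The cytosolic fatty acid synthase, built from the beta subunit Fas1 and the alpha subunit Fas2, then adds malonyl units to a growing acyl chain. The Ole1 desaturase introduces the double bond of palmitoleic and oleic acid. Elo1, Fen1 (Elo2) and Sur4 (Elo3) are elongases of the endoplasmic reticulum, with Fen1 and Sur4 making the very long chains of sphingolipids, and Faa1 activates long-chain fatty acids to their CoA esters.

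The lists held 51574 clusters for light total RNA, 33345 for glucose starvation, 38936 for nitrogen starvation and 61035 for log-phase polyA RNA. A cluster was counted for a gene when it lay on the gene's strand in the coding region, up to 100 nt upstream or up to 150 nt downstream. The 8 genes held 488 clusters in light total RNA, 69 after glucose starvation, 41 after nitrogen starvation and 123 in log-phase polyA RNA. As a share of each list, the 8 genes thus held 0.946% in light total RNA (Wilson interval 0.866 to 1.03), 0.207% after glucose starvation (0.164 to 0.262), 0.105% after nitrogen starvation (0.0776 to 0.143) and 0.202% in log-phase polyA RNA (0.169 to 0.240). All 8 coding regions are single exons, and no cluster of these genes, widened to 30 nt, had an exact match elsewhere in the genome, although the elongases are paralogs of each other, as ACC1 is of HFA1.

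FAS2 (YPL231W, chrXVI:108652-114315, plus strand, R64) had a coding region of 5664 nt. It carried 137 clusters in light total RNA, 9 after glucose starvation, 1 after nitrogen starvation and 6 in log-phase polyA RNA. The sequences that follow show what the few polyA clusters looked like and how they differ from a cluster of total RNA. Capitals mark the bases inside the cluster, the coordinates are those of the capitals on the R64 reference, and the letters are DNA of the mRNA's strand read from the RefSeq genome. The first 6 are the FAS2 clusters of log-phase polyA RNA in order, 5 in the coding region and 1 past the stop codon, and the last is the widest FAS2 cluster of light total RNA.

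FAS2 nt 1237 to 1247, chrXVI:109888-109898: aacaatctTTATTATCATTatactttg

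FAS2 nt 1860 to 1868, chrXVI:110511-110519: aacaaatcTACCATTTCtaagacgg

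FAS2 nt 2159 to 2167, chrXVI:110810-110818: ctaccaatCCATTTACGccaaatat

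FAS2 nt 3520 to 3530, chrXVI:112171-112181: ccactttaTACATTCCAAAggctttga

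FAS2 nt 5056 to 5065, chrXVI:113707-113716: gtgcctacAAATTCTTCCataatggt

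FAS2 past the stop codon, chrXVI:114343-114350: ctcttttaATATGTAAcgtgtcgc

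FAS2 nt 5497 to 5551, total RNA, chrXVI:114148-114202: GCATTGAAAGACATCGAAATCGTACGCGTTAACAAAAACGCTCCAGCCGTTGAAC

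The polyA clusters were 8 to 11 nt wide, and 4 of the 6 held no G. In light total RNA the FAS2 clusters ranged from 3 to 55 nt, with a median of 13.0 nt, and 9 of 137 held no G (6.57%). The bases inside FAS2 clusters were 28.0% T and 20.9% G in light total RNA, against 41.4% T and 3.45% G in log-phase polyA RNA. The FAS2 coding region itself is 28.3% T and 22.6% G, so the clusters of total RNA had nearly the base content of the mRNA they lay on. Over all mRNA genes outside the 8, clusters without a G made up 21.3% in light total RNA and 53.7% in log-phase polyA RNA.

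Along the FAS2 coding region, the clusters of light total RNA were spread end to end. Of the 137 clusters, 135 had their middle in the coding region, 1 in the upstream flank and 1 in the downstream flank. With the coding region cut into 10 equal parts from the start codon, each part held between 10 and 17 of the 135, or 7.41% (Wilson interval 4.07 to 13.1, part 8) to 12.6% (8.01 to 19.2, part 5). The clusters covered 35.5% of the coding bases, from 21.0% in part 8 to 47.5% in part 4. The longest stretch with no cluster was 111 nt, at nt 4212 to 4322, and the median gap between clusters was 22.0 nt.

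In polyA RNA, the same mRNA was almost bare. Log-phase polyA clusters covered 0.883% of the FAS2 coding region, glucose starvation 1.41% and nitrogen starvation 0.141%. From nt 1 to 1232, light total RNA had 32 of its 137 clusters, whereas none of the 3 polyA lists had a cluster there. The longest bare stretch was 1525 nt in log-phase polyA RNA (nt 3531 to 5055), which held 31 clusters of total RNA. After nitrogen starvation the single cluster lay at nt 5057 to 5064, inside the log-phase cluster at nt 5056 shown above. Overlapping clusters of the 4 lists were merged into sites, so that a cluster can belong to a site of all 4 lists without itself overlapping each list. The site at nt 5056 was the 1 FAS2 site present in all 4 lists. After glucose starvation, FAS2 clusters lay at nt 1233 to 1247, 1768 to 1775, 1862 to 1868, 4062 to 4069, 4532 to 4540, 4865 to 4874, 5056 to 5064 and 5600 to 5613, with a 9th past the stop codon. Of these 9, 4 overlapped a log-phase polyA cluster and 6 overlapped a cluster of total RNA.

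**Figure D1:**
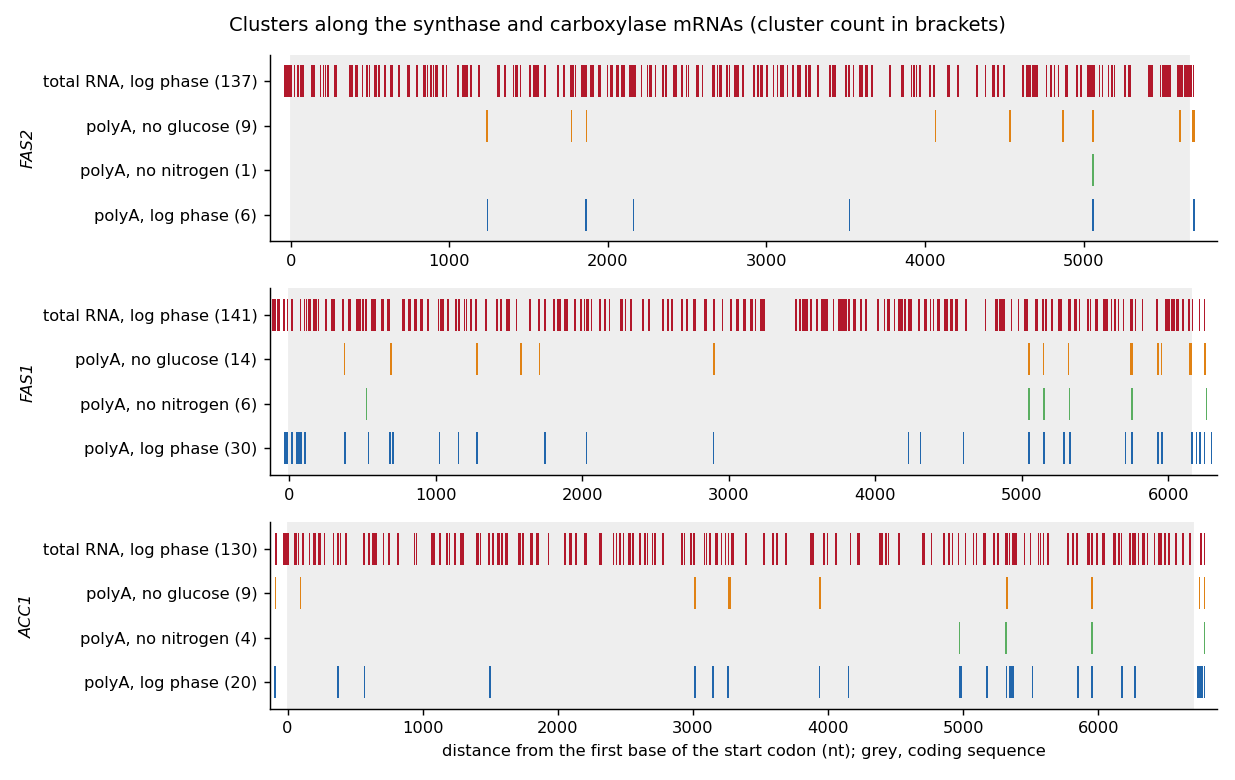
Position of each cluster (coloured bars, drawn at a minimum width to stay visible) along the FAS2, FAS1 and ACC1 mRNAs, in nt from the start codon, with 1 row per list and the coding region in grey. Clusters of light total RNA lie along the whole length of each coding region. They cover 35.5% of it in FAS2, 34.0% in FAS1 and 26.6% in ACC1. FAS2 has 137 clusters in light total RNA against 6 in log-phase polyA RNA, and its nitrogen row holds 1.

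Per 100000 clusters of its list, FAS2 had 266 clusters in light total RNA and 9.83 in log-phase polyA RNA, a ratio of 27.0 (exact interval 12.1 to 74.9). By covered length it ranked 1 of 5379 genes in this comparison, at a log2 ratio of 4.73 above the median gene. The size of the ratio depends on what is counted. With clusters that lack a G, scaled to the clusters without a G of each list, it was 6.50 (1.82 to 28.9), from 9 clusters against 4. The cluster names number clusters in groups, and FAS2 clusters fell into 20 groups in light total RNA, with 6.85 clusters per group, against 6 groups of 1 cluster each in log-phase polyA RNA. Counting groups gave a ratio of 5.32 (2.06 to 16.2). Both of these counts were chosen after the data were seen.

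FAS1 (YKL182W, chrXI:100671-106826, plus strand, 6156 nt coding) encodes the partner subunit of the synthase. It carried 141 clusters in light total RNA, 14 after glucose starvation, 6 after nitrogen starvation and 30 in log-phase polyA RNA. In light total RNA, FAS1, FAS2 and ACC1 had the 3 highest cluster counts of all mRNA genes, ahead of PMA1, the plasma membrane proton pump, with 88. In log-phase polyA RNA, FAS1 was still rank 4 by count, while FAS2 was rank 2678. The ratio for FAS1 was 5.56 in clusters (3.73 to 8.55), scaled to all clusters of each list. In numbered groups, scaled to all groups of each list, it was 1.21 (0.632 to 2.29), from 19 groups in light total RNA against 25 in log-phase polyA RNA.

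Set side by side, the 2 subunits had these levels. Clusters of light total RNA covered 34.0% of the FAS1 coding region and 35.5% of FAS2, and their densities were 21.8 (exact Poisson interval 18.2 to 25.8) and 23.8 clusters per kb (20.0 to 28.2). In log-phase polyA RNA the densities were 3.90 per kb for FAS1 (2.50 to 5.80) and 0.883 for FAS2 (0.287 to 2.06). FAS1 clusters of polyA RNA lay at both ends of the coding region: 11 of 24 in its first 3 parts, 3 in the 4 middle parts and 10 in the last 3 parts. The same stretches held 41, 51 and 42 of 134 clusters in light total RNA.

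FAS1 had 3 sites present in all 4 lists, all in parts 9 and 10 of the coding region. They are shown with the log-phase polyA cluster in capitals, and 2 of the 3 clusters have no G. The cluster at nt 5325 did not itself overlap a glucose cluster.

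FAS1 nt 5147 to 5156, chrXI:105817-105826: cccagttaACTTAACAATtcacttcg

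FAS1 nt 5325 to 5338, chrXI:105995-106008: gctactcaATTTACACAACCAGctttaact

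FAS1 nt 5745 to 5761, chrXI:106415-106431: tctaaaCTTCATCAAATTACAAAaaattg

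ACC1 (YNR016C, chrXIV:654673-661374, minus strand, 6702 nt coding) carried 130 clusters in light total RNA, 9 after glucose starvation, 4 after nitrogen starvation and 20 in log-phase polyA RNA. Its ratio of light total RNA over log-phase polyA RNA was 7.69 (4.78 to 13.0), and 3.46 in numbered groups (1.93 to 6.42). Total RNA clusters covered 26.6% of the coding region, with 8 and 7 of 126 clusters in parts 6 and 7 and 17 in part 10. In log-phase polyA RNA, 9 of 17 coding clusters lay in the last 3 parts, and nt 1507 to 3010 held no cluster, where light total RNA had 30. The ACC1 sites present in all 4 lists were a pair in the coding region and 1 past the stop codon that consists of alternating T and A.

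ACC1 nt 5319 to 5328, chrXIV:656047-656056, minus strand: tatacttcTAACTTACAAttgggtgg

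ACC1 nt 5947 to 5960, chrXIV:655415-655428, minus strand: attacaaaCAACCAATTATTATctatatcc

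ACC1 ending 86 nt past the stop codon, chrXIV:654587-654593, minus strand: catacataTATATATtatgcgcg

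Summed, FAS1, FAS2 and ACC1 had 30.1%, 39.0% and 30.9% of 395 coding clusters of light total RNA in the first 3, middle 4 and last 3 of the 10 parts. In log-phase polyA RNA the shares were 32.6%, 23.9% and 43.5% of 46. The 123 other genes with a coding region of at least 4500 nt had 34.2%, 36.9% and 28.9% of 1987 clusters in light total RNA, and 37.0%, 23.3% and 39.7% of 843 in log-phase polyA RNA. The middle 4 parts thus held a smaller share in log-phase polyA RNA than in total RNA for the other long mRNAs as well. FAS1 and ACC1 each had this direction. FAS2 went the other way, with 3 of 5 log-phase polyA clusters in the middle parts (60.0%, Wilson interval 23.1 to 88.2) against 43.7% in light total RNA. After nitrogen starvation, 8 of the 9 coding clusters of the 3 genes lay in the last 3 parts (88.9%, Wilson interval 56.5 to 98.0), against 57.8% of 419 in the other long genes (53.0 to 62.4), and the intervals overlap.

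**Figure D2:**
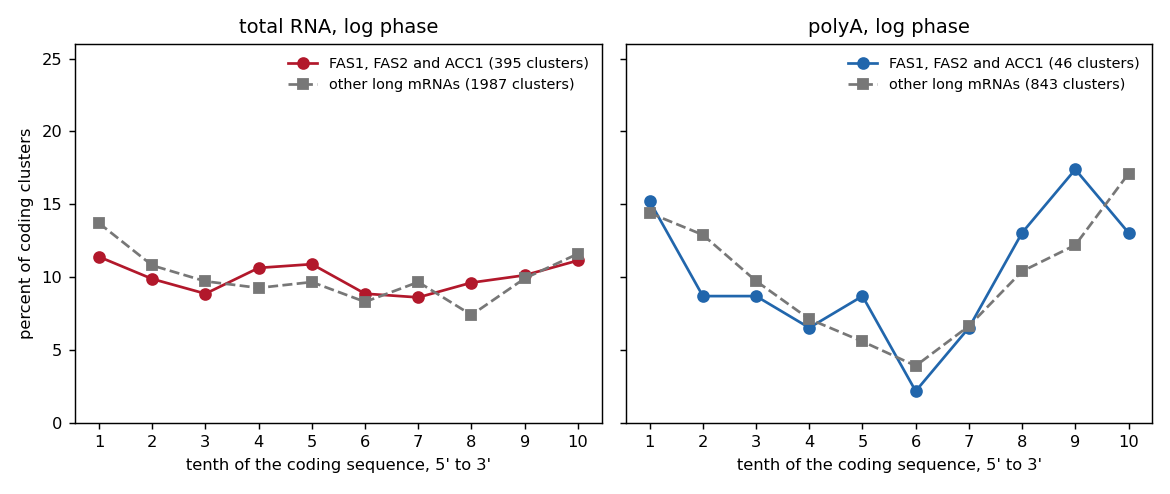
Share of coding clusters (percent) in each of 10 equal parts of the coding region from 5' to 3', for FAS1, FAS2 and ACC1 summed (circles) and the other mRNAs with a coding region of at least 4500 nt (squares), in light total RNA on the left and log-phase polyA RNA on the right. In total RNA the other long mRNAs run between 7.40% (part 8) and 13.7% (part 1). In polyA RNA both lines dip in the middle, where the other long mRNAs have 3.91% in part 6.

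OLE1 (YGL055W, chrVII:398628-400160, plus strand, 1533 nt coding), the fatty acid desaturase gene of this yeast, carried 33 clusters in light total RNA, 14 after glucose starvation, 9 after nitrogen starvation and 19 in log-phase polyA RNA. Its cluster ratio of light total RNA over log-phase polyA RNA was 2.06 (1.14 to 3.83). With wider flanks it was 1.68 (0.993 to 2.90), with clusters of at least 10 nt 1.52 (0.759 to 3.16), and with clusters on mRNA genes as the scale 1.67 (0.921 to 3.10). OLE1 had the most recurrent sites of the 8 genes: of its 39 distinct sites, 5 were present in all 4 lists and 8 in all 3 polyA lists. The recurrent sites included 1 that ended just before the start codon and 2 past the stop codon. The site before the start codon and the site ending 15 nt past the stop codon both open with the letters ACATTAC.

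OLE1 nt -14 to -3, chrVII:398614-398625: gcactaaaACATTACAACAAagatgcca

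OLE1 nt 282 to 295, chrVII:398909-398922: aaaactaaAATTCACATCTCCGaacaacca

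OLE1 nt 984 to 992, chrVII:399611-399619: gccattgtTACTTTCGGtgaaggtt

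OLE1 ending 15 nt past the stop codon, chrVII:400166-400175: taagtatcACATTACAATaacaaaac

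OLE1 ending 152 nt past the stop codon, chrVII:400307-400312: gatttaccTTTTTTatttattt

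In the starved lists OLE1 clusters were mostly outside the middle of the coding region. After glucose starvation, 6 of 14 lay past the stop codon, 2 upstream of the start codon and 6 in the coding region. After nitrogen starvation the counts were 5, 2 and 2 of 9, and in log-phase polyA RNA 4, 3 and 12 of 19. Light total RNA had 29 of 33 in the coding region.

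FAA1 (YOR317W, chrXV:909343-911445, plus strand, 2103 nt coding), the main long-chain acyl-CoA synthetase, carried 30 clusters in light total RNA, 6 after glucose starvation, 6 after nitrogen starvation and 10 in log-phase polyA RNA. The ratio of light total RNA over log-phase polyA RNA was 3.55 (1.69 to 8.14). Scaled to the clusters without a G of each list, it was 1.16 (0.110 to 7.06), from 2 such clusters against 5. Clusters of light total RNA covered 18.1% of its coding region, against 2.52% in log-phase polyA RNA. FAA1 had 2 sites present in all 4 lists, 1 early in the coding region and 1 in the downstream flank with a run of T. The cluster at nt 295 did not itself overlap a light total cluster.

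FAA1 nt 295 to 305, chrXV:909637-909647: attatcatTATAATTCATTtgaccaat

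FAA1 ending 134 nt past the stop codon, chrXV:911565-911579: gtttgttATTATCCTTTTTTCTtctttac

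The 3 elongase mRNAs had fewer clusters in light total RNA than in log-phase polyA RNA, but each interval of the ratio held 1. ELO1 (YJL196C, chrX:67850-68782, minus strand), the elongase of medium-length chains, had 6 clusters in light total RNA, 6 after glucose starvation, 6 after nitrogen starvation and 14 in log-phase polyA RNA. FEN1 (YCR034W, annotated as ELO2, chrIII:190592-191635, plus strand) had 5, 6, 4 and 12 clusters in the same order of lists. SUR4 (YLR372W, annotated as ELO3, chrXII:867354-868391, plus strand) had 6, 5, 5 and 12. The ratios of light total RNA over log-phase polyA RNA were 0.507 for ELO1 (0.160 to 1.40), 0.493 for FEN1 (0.136 to 1.50) and 0.592 for SUR4 (0.182 to 1.70). Counted on either strand, ELO1 had a ratio of 0.374 (0.122 to 0.973), since 5 further clusters of log-phase polyA RNA lay opposite to it. Scaled to the clusters without a G of each list, the ratio was 1.16 for ELO1 (0.110 to 7.06) and 1.73 for SUR4 (0.269 to 8.91). The counts themselves were still lower in light total RNA, 2 against 5 for ELO1 and 3 against 5 for SUR4. In numbered groups, scaled to all groups of each list, FEN1 had a ratio of 0.998 (0.257 to 3.46).

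The elongase coding regions are 1044 nt or shorter and rich in T, from 35.6% in ELO1 to 37.5% in SUR4, against 28.3% to 30.3% in the other 5 genes. In light total RNA, ELO1 clusters were 49.0% T, FEN1 clusters 53.3% and SUR4 clusters 39.2%, against 32.4% in all mRNA genes outside the 8. The following log-phase polyA clusters belong to sites of all 4 lists, the first near the start codon and the others near or past the stop codon. They are a selection, and ELO1, for example, had another such cluster at nt 412 to 439. The SUR4 cluster at nt 911 did not itself overlap a glucose cluster.

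ELO1 nt 77 to 85, chrX:68698-68706, minus strand: tttttttaATATTTATTtgtgggac

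FEN1 nt 868 to 876, chrIII:191459-191467: atttggtaCTATTTATTtcatttta

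FEN1 ending 92 nt past the stop codon, chrIII:191720-191727: tatcactaTTATTATAttgtaaaa

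SUR4 nt 911 to 924, chrXII:868264-868277: cttctacaTCCAATCTTACAAGaaaggtgg

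SUR4 ending 80 nt past the stop codon, chrXII:868454-868471: ttttctTTATATTAAATATGTACGataaat

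**Figure D3:**
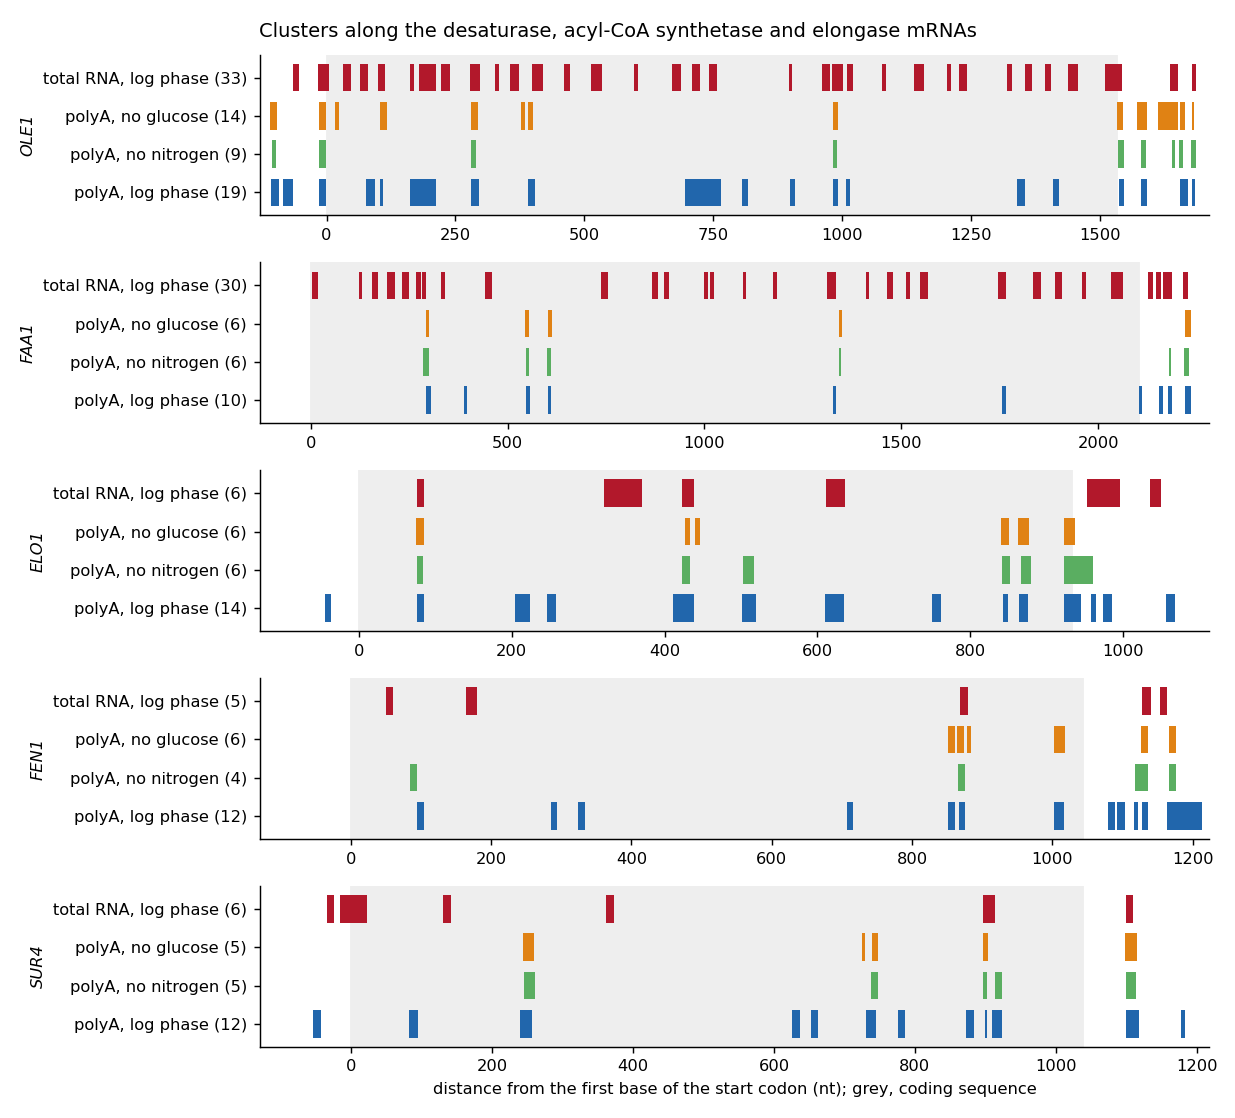
Position of each cluster along the OLE1, FAA1, ELO1, FEN1 and SUR4 mRNAs, in nt from the start codon, with 1 row per list, bars at their true width and the coding region in grey. OLE1 and FAA1 have more bars in light total RNA (33 and 30) than in log-phase polyA RNA (19 and 10), and the elongases have fewer (5 or 6 against 12 to 14).

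Ordered by coding clusters per kb in light total RNA, the genes were FAS2 (23.8), FAS1 (21.8), OLE1 (18.9, exact Poisson interval 12.7 to 27.2), ACC1 (18.8, 15.7 to 22.4), FAA1 (12.4, 8.08 to 18.1), ELO1 (4.29, 1.17 to 11.0), SUR4 (3.85, 1.05 to 9.87) and FEN1 (2.87, 0.593 to 8.40). Every pair of neighbours in that order had overlapping intervals. In log-phase polyA RNA the order was ELO1 (9.65, 4.41 to 18.3), SUR4 (8.67, 3.96 to 16.5), OLE1 (7.83, 4.04 to 13.7), FEN1 (6.70, 2.70 to 13.8), FAS1 (3.90), FAA1 (2.85, 1.05 to 6.21), ACC1 (2.54, 1.48 to 4.06) and FAS2 (0.883). Among 5911 mRNA genes, the covered share of the coding region ranked FAS2 147 in light total RNA and 4843 in log-phase polyA RNA, where the median genes had 3.40% and 3.14%. For ELO1 the ranks were 1343 and 211.

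**Figure D4:**
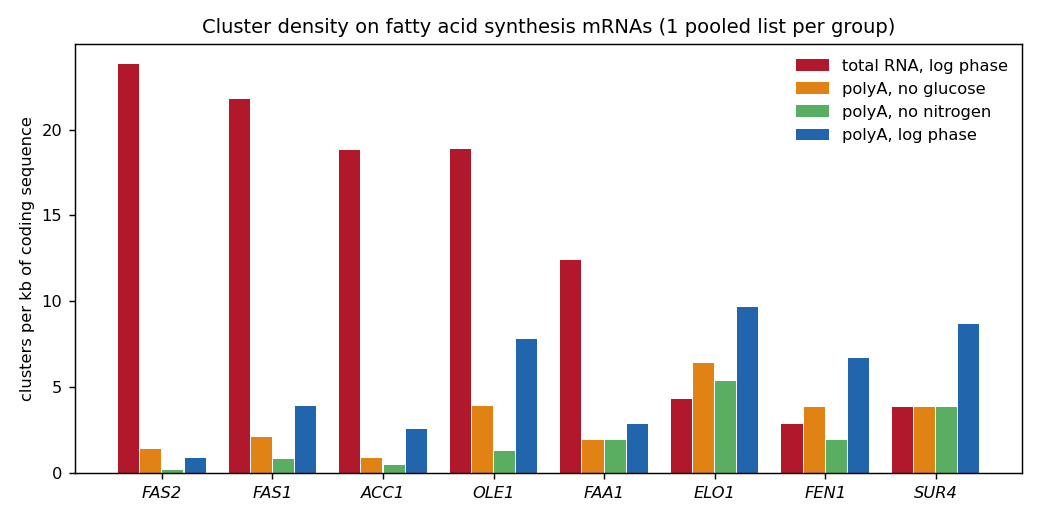
Clusters per kb of coding region (bars, from 0) for each gene in the 4 lists, not scaled for the differing list lengths. FAS2, FAS1, ACC1, OLE1 and FAA1 are highest in light total RNA, at 12.4 to 23.8 per kb, and ELO1, FEN1 and SUR4 are highest in log-phase polyA RNA, at 6.70 to 9.65.

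Across the 8 genes, the ratio of light total RNA over log-phase polyA RNA had an interval above 1 for 5 (FAS1, FAS2, ACC1, OLE1 and FAA1) and below 1 for 0. The median gene itself had a log2 covered-length ratio of -0.17 for light total RNA, 0.26 for glucose starvation and 0.15 for nitrogen starvation over log-phase polyA RNA, and covered-length values are given relative to it. Over all 5379 mRNA genes with at least 2 clusters in either list, 9.30% had an interval above 1 and 3.66% below 1. Length goes with this measure: of the 117 such genes with a coding region of at least 4500 nt, 40.2% had an interval above 1. By covered length, 4 of the 8 (FAS1, FAS2, ACC1 and FAA1) were at least 2-fold above the median gene, against 17.3% of all genes and 53.8% of the long genes, and FEN1 was at least 2-fold below it, against 19.9%. The genes were chosen with this contrast known, so nothing is read from these counts. The median of the 8 was 1.28 on the log2 scale above the median gene, from -1.16 (FEN1) to 4.73 (FAS2), and the median of the long genes was 1.14.

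After 2 h without glucose, set against log-phase polyA RNA, 0 of the 8 genes had an interval above or below 1, where 0.906% and 0.491% of 5296 genes did. FAS2 had the highest ratio, 2.75 (0.873 to 9.37), from 9 clusters in the glucose list against 6. It was the 1 gene of the 8 at least 2-fold above the median gene in covered length, where 3.91% of genes were. At least 2-fold below the median gene were 0 of the 8, where 6.51% were. FAS2 was selected on its excess in total RNA over log-phase polyA RNA, and the same log-phase list divides the ratio here. A low count in that list raises both ratios, so nothing is read from the place of FAS2 in this comparison. The other 7 ratios ran from 0.763 (SUR4, 0.210 to 2.33) to 1.35 (OLE1, 0.626 to 2.84). In covered length, the 8 genes had a median of -0.57 on the log2 scale relative to the median gene.

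After 2 h without nitrogen, set against the same log-phase polyA list, all 8 ratios of clusters per list size were under 1, and 2 intervals lay below 1. FAS1 had 6 clusters in the nitrogen list against 30, a ratio of 0.314 (0.107 to 0.766), and ACC1 had 4 against 20, also 0.314 (0.0779 to 0.936). An interval below 1 was found for 0.583% of 5321 genes, and above 1 for 1.22%, with 0 of the 8 above. The share among long genes, to which FAS1 and ACC1 belong, is not given here. The other genes with a coding region of at least 4500 nt held 581 clusters after nitrogen starvation against 1049 in log-phase polyA RNA. All mRNA genes outside the 8 held 25991 against 39657. The ACC1 interval reached 1.16 with clusters of at least 10 nt and 1.04 with numbered groups, and with clusters lacking a G both did: 0.377 (0.0912 to 1.18) for FAS1 and 0.472 (0.0822 to 1.89) for ACC1. FAS2 had 1 cluster against 6, a ratio of 0.261 (0.00568 to 2.15). In covered length FAS1, FAS2, ACC1 and OLE1 were at least 2-fold below the median gene, where 5.00% of genes were, and 0 of the 8 were 2-fold above it, where 4.47% were. In clusters, OLE1 had 9 against 19, a ratio of 0.743 whose interval held 1 (0.296 to 1.72). The 8 genes had a median of -0.99 relative to the median gene, from -1.79 (FAS1) to -0.18 (FAA1). Within FAS1, nt 532 to 5045 held no cluster after nitrogen starvation, a stretch with 94 of its 141 clusters in light total RNA.

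**Figure D5:**
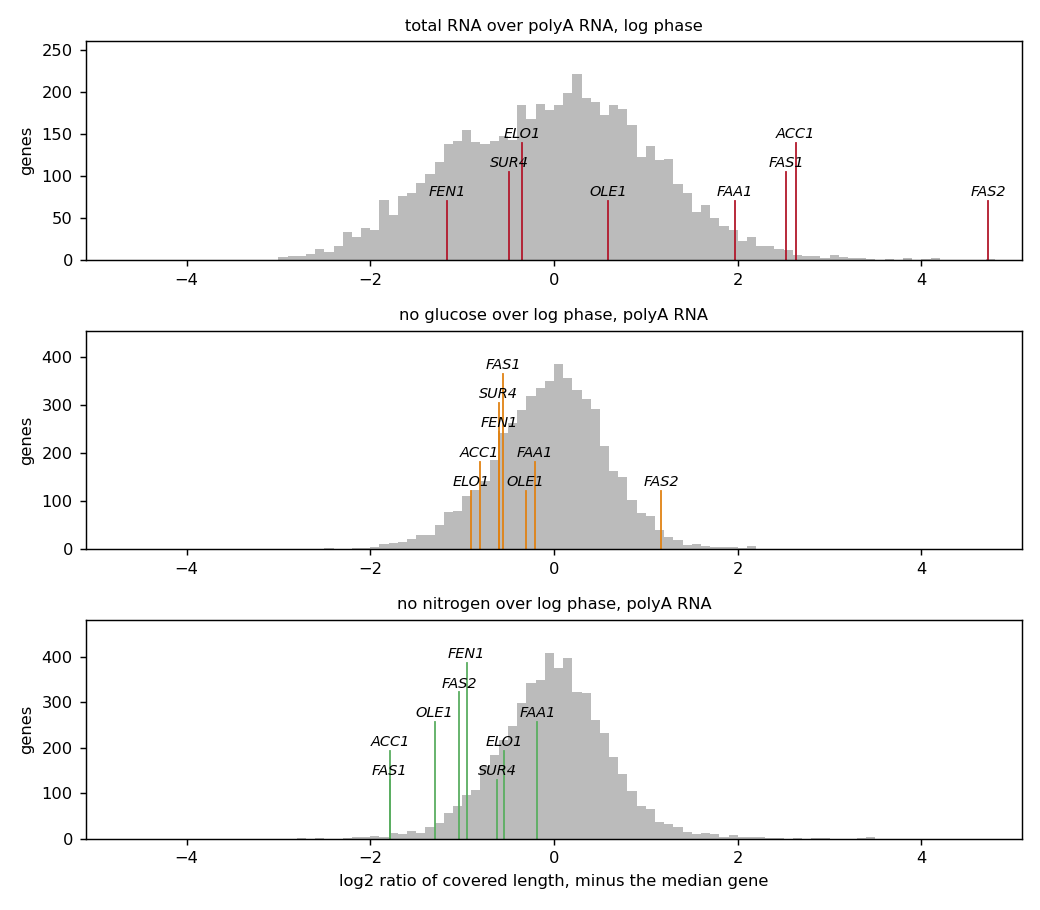
Log2 ratio of covered length per list, minus the median gene, for all mRNA genes with at least 2 clusters in either list (grey histogram) and the 8 genes (coloured lines, whose heights only separate the labels). From top to bottom, the panels set light total RNA, glucose starvation and nitrogen starvation against log-phase polyA RNA; FAS2 stands at 4.73 in the first, 1.17 in the second and -1.03 in the third.

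Summed over the 8 genes, the share of clusters near the 3' end differed between total and polyA RNA. The last 500 nt of the coding region and the downstream flank held 13.9% of them in light total RNA (Wilson interval 11.1 to 17.3), 44.9% after glucose starvation (33.8 to 56.6), 51.2% after nitrogen starvation (36.5 to 65.7) and 41.5% in log-phase polyA RNA (33.1 to 50.3). For all other mRNA genes these shares were 43.4%, 59.8%, 59.5% and 52.2%. FAS1, FAS2 and ACC1 alone had 9.80%, 28.1%, 27.3% and 23.2%, and the other long genes 12.4%, 27.5%, 35.8% and 25.2%. These 3 genes supplied 408 of the 488 clusters in light total RNA but 56 of the 123 in log-phase polyA RNA. The sums thus mix long and short genes in different proportions. By gene, OLE1 had 33.3% in light total RNA against 31.6% in log-phase polyA RNA, and each of the others had a lower share in total RNA.

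Of the 69 clusters after glucose starvation, 75.4% shared 1 nt or more with a cluster of log-phase polyA RNA (52 of 69), as did 87.8% of the 41 after nitrogen starvation (Wilson interval 74.5 to 94.7). Over all other mRNA genes the shares were 74.3% and 73.2%. Of the 488 clusters of light total RNA, 14.1% overlapped a log-phase polyA cluster (11.3 to 17.5), against 31.1% over other mRNA genes. In the other direction, 54.5% of the 123 log-phase polyA clusters overlapped one of light total RNA (45.7 to 63.0), against 32.2%. Total RNA clusters covered 34.0%, 35.5% and 26.6% of the coding regions of FAS1, FAS2 and ACC1, against 3.40% in the median gene, and the part of that coverage in the overlap was not tested.

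Among the printed sites, the letters TTACAA recurred, a word picked after the sequences were read. It stood in 4 of the 18 log-phase polyA clusters of the 8 genes that themselves overlap a cluster of each other list. For all other mRNA genes it stood in 105 of 6198 such clusters, or 1.69%. Over all log-phase polyA clusters the shares were 4.07% for the 8 genes (5 of 123) and 1.23% for the other genes. Those 5 clusters are all among the printed ones from which the word was picked. The shares of the 8 genes can thus not show whether the word is more common in them. In the 150 nt after the stop codon, on the mRNA's strand, TATATA was present in 4 of the 8 genes and 42.9% of all mRNA genes, and TTTTTT in 4 of the 8 and 36.6%. The letters TGTANATA, the core recognised by the Puf3 protein, were present in 0 of the 8 and 12.8% of genes. These are matches of letters, not sites.

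The genes whose covered length over the 4 lists was most like that of FAS2 were GSY2 (glycogen synthase), PYC2 (pyruvate carboxylase), INO1 (inositol phosphate synthase), ARO1 (aromatic amino acid synthesis) and KAR2 (a chaperone of the endoplasmic reticulum). Their distances to FAS2, summed over log2 covered lengths as a Euclidean distance, were 1.67, 1.83, 1.85, 1.91 and 2.10 among 5693 genes. ACC1 was rank 9, FAS1 rank 57 and FAA1 rank 58. GSY2 had 56 clusters in light total RNA, 5 after glucose starvation, 3 after nitrogen starvation and 6 in log-phase polyA RNA, and INO1 had 46, 5, 4 and 3.

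Of 39 other genes of fatty acid metabolism in 6 lists, 0 had an interval above 1 for light total RNA over log-phase polyA RNA and 1 below, where 9.30% and 3.66% of all mRNA genes did. In covered length 3 were at least 2-fold above the median gene and 6 at least 2-fold below it, where 17.3% and 19.9% of all genes were. Relative to the median gene, the partners of the elongases had log2 covered-length ratios of 0.39 (IFA38), 0.02 (TSC13) and -0.73 (PHS1). The reductase genes IFA38 and TSC13 had 8 and 9 clusters in light total RNA against 8 and 12 in log-phase polyA RNA. The dehydratase gene PHS1 had 8 against 13. Among activation genes, FAA4, a paralog of FAA1, had 14 against 10, FAT1 4 against 11 and FAA3 0 against 3. HFA1, the mitochondrial counterpart of ACC1, had 3 against 0, and BPL1, which attaches biotin to Acc1, 3 against 9. In mitochondrial fatty acid synthesis, the phosphopantetheinyl transferase gene PPT2 had 5 against 3, and the reductase genes OAR1 and ETR1 had 1 against 3 and 9 against 8.

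The regulators of lipid synthesis had the highest list median, 0.90 on the log2 scale above the median gene. INO4, an activator of phospholipid and fatty acid synthesis genes, had 6 clusters in light total RNA against 1 (ratio 7.10, 0.861 to 327), and OPI1, their repressor, 8 against 2 (4.73, 0.945 to 45.8). SPT23, an activator of OLE1, had 19 against 11. In beta-oxidation, the breakdown of fatty acids, DCI1 was the gene with an interval below 1, with 0 clusters in light total RNA against 7 in log-phase polyA RNA (upper limit of the ratio 0.821). ECI1, an isomerase gene, had 1 against 6, and PXA1, a subunit of the peroxisomal fatty acid importer, 2 against 7.

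In glucose starvation, 1 of the 39 had an interval above 1 and 0 below, where 0.906% and 0.491% of all genes did, and in nitrogen starvation 0 of the 39 had either, where 1.22% and 0.583% did. POT1, the thiolase of beta-oxidation, had 7 clusters after glucose starvation against 1 in log-phase polyA RNA (12.8, 1.65 to 577). PXA1 had 0 after nitrogen starvation against 7 (upper limit of the ratio 1.09). SPT23 had 3 after nitrogen starvation against 11, and FAA4 3 against 10.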

How the data were processed

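The deposited files hold 1 cluster list per group, each pooling both libraries of the group; no read counts per cluster were given, and the score in every line of a deposited list is 0. Per the submitters' processing notes, Bowtie 0.12.7 and build R64 were used; caller and thresholds, not given in the sources used here. Other deposited values are cluster positions, read as 0-based starts. Depth is known only as the number of clusters.

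Clusters were assigned by strand to genes of the RefSeq R64 annotation, extended 100 nt upstream and 150 nt downstream; all 8 gene names matched. Count ratios per list size carry exact conditional (Clopper-Pearson) intervals, shares Wilson intervals and densities exact Poisson intervals, all at 95% and for counting error only. For clusters without a G, clusters of at least 10 nt and numbered groups, list size is the number of these in the list. Log2 covered-length ratios add 20 nt to each length. The calculation was tested on simulated data (Python 3.11.15, SciPy 1.17.1). With 1 pooled list per group there is no replicate test. All 3 comparisons use the log-phase polyA list.

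The 8 genes, the pathway lists and the alternatives were chosen with earlier results of these data known. Named genes are all 8, up to 3 per other list with the largest total-to-polyA change and up to 2 with the largest change in a starvation by covered length, and the 5 most like FAS2; sequences shown are recurrent sites, the FAS2 polyA clusters and the widest total RNA cluster.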

Additional observations from a re-analysis of the deposited data

Results flagged for a closer look

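On the strand opposite ELO1, outside other genes and their flanks, log-phase polyA RNA had 5 clusters, where light total RNA, glucose starvation and nitrogen starvation had 0 each. They were listed because their number exceeds the 3 counts that a count of 0 allows. That rule takes raw counts from lists of differing length. The share of all mRNA genes with as many opposite-strand clusters is not given here, so whether ELO1 is unusual cannot be said. The middles of the 5 clusters lay at nt -64, 7, 22, 78 and 907 of ELO1, counted from its start codon, so 4 of the 5 were at its 5' end. The other genes of the 8 had at most 3 opposite-strand clusters in any list.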

How the results depend on the processing

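The alternatives varied the flanks, the overlap with the gene, cluster width, the scale, the strand and the measure. Clusters without a G and numbered groups were added after seeing the data. These 2 counts, and clusters of at least 10 nt, were each scaled to their own total in the list. Of 216 single-gene ratios under alternatives, 192 had an interval. Among those, 11 no longer had an interval off 1 and 1 newly did. Only genes with a main interval off 1 could lose it, 5 for light total RNA and 2 for nitrogen starvation. Of the 192 with an interval, 18 crossed 1 in value, each with an interval that held 1 before and after; without an interval, covered length put OLE1 after glucose starvation at 0.962 against 1.35 in clusters. The number of genes with an interval above 1 for light total RNA over log-phase polyA RNA was 5, but 4 with wider flanks, 4 with clusters of at least 10 nt, 4 with mRNA clusters as the scale, 3 with clusters lacking a G and 3 with numbered groups. The number with an interval below 1 was 0, but 1 on either strand (ELO1). For nitrogen starvation the number with an interval below 1 was 2, but 1 with clusters of at least 10 nt, 0 with clusters lacking a G and 1 with numbered groups. The cause was not tested. For OLE1, light total RNA over log-phase polyA RNA was 1.08 (0.185 to 4.52) with clusters lacking a G and 1.49 (0.666 to 3.31) with numbered groups. With an end window of 1000 nt, the shares at the 3' end were 25.6%, 58.0%, 73.2% and 59.3% in light total RNA, glucose starvation, nitrogen starvation and log-phase polyA RNA. When most of a cluster had to be shared (0.5 of its width or more), 7.99% of light total clusters overlapped log-phase polyA clusters and 42.3% the other way. No paired analysis was possible because each list pools both replicates of its group, and for the same reason no replicate could be left out. The lists carry no reads, so small differences between genes with few clusters were not detectable.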
